A study of Sus scrofa with 9 samples.

Results

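The 3 GFP control libraries of a 9-library RNA sequencing series are described here as a baseline, with no contrast against the transgenes. They were chosen by their labels alone, as the libraries of pig cells that carry a GFP transgene under doxycycline control. The cells are primary cells of the Gottingen pig, labelled as myoblasts, at passages 7 to 9. They grew in F-10 medium with 15% fetal bovine serum and 1% chick embryo extract, and received 1 µg/mL doxycycline for 16 h before harvest, as did the libraries of the other groups. The other 6 libraries, with human DUX4 or pig DUXC in place of GFP, were not used. The labels do not say how many animals gave the cells, whether the transgenic cells are a clone or a pool, or whether the 3 libraries come from separate cultures, so the spread given below is that between these libraries and may be technical. The level of the GFP transgene itself was not analysed here, and the group rests on the labels.

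Skeletal muscle holds satellite cells, the stem cells marked by PAX7, which on activation become dividing myoblasts that express MYF5 and MYOD1 and later, under MYOG, leave the cell cycle and build sarcomeres. The same tissue holds stromal cells, fibroblasts and fibro-adipogenic progenitors, which carry the receptor PDGFRA and make most of the collagen, together with the pericytes and smooth muscle cells of vessels. Cultures grown from muscle pieces can hold both lineages. The values below show which of these genes took the reads in the GFP libraries.

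The libraries held 42362395, 39979602 and 40608840 counts. Of 27339 genes in the count table, 7860 (28.8%) had no count in any GFP library and 12242 (44.8%) had a mean of at least 1 CPM (counts per 1000000 counts of the library). At 10 CPM or more there were 8855 genes, at 100 CPM or more 1824 and at 1000 CPM or more 111. Genes without a count can be up to 0.0244 CPM, the level of 3 counts over the 3 libraries, and this limit covers counting error only. For protein-coding genes with a symbol of their own, which is the closer background for the lists below, 11153 of 16493 (67.6%) were at 1 CPM or more and the median was 10.9 CPM, against a median of 0.324 CPM over all genes. Transcript lengths were not used here, so CPM is the share of reads that fell on a gene, which grows with transcript length as well as with the number of molecules. The order of genes below is therefore one of read shares. Where spans overlap in the annotation, reads may be shared, as for MYF5, SPARC, PRRX1, HOXA10, FGF2 and IL33 among the genes given by library. Levels are means ± SD of n = 3 libraries, and no test was made.

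Reads were concentrated on few genes. The 10 genes with the highest mean CPM took 11.7 ± 0.244% of the counts, the 100 highest took 29.4 ± 0.346%, and 498 genes made up 50% of the total. Of the 30 highest, 11 encode collagens, glycoproteins or proteoglycans of the matrix, 7 are genes of the cytoskeleton, 5 of ribosomes or translation factors and 1, PKM, of glycolysis. The other 6, outside the lists of these classes, were RN18S, the Wnt antagonist gene SFRP2, the protein-coding locus LOC100623720, IGFBP2, the endocytic receptor gene LRP1 and the integrin gene ITGB1. What LOC100623720 encodes was not examined, so its class is not known here. RN18S is 18S ribosomal RNA, a molecule that selection for poly(A) RNA is meant to remove. It stood at 8134, 6417 and 7332 CPM in libraries 1, 2 and 3, highest in library 1 and lowest in library 2.

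**Figure D1:**
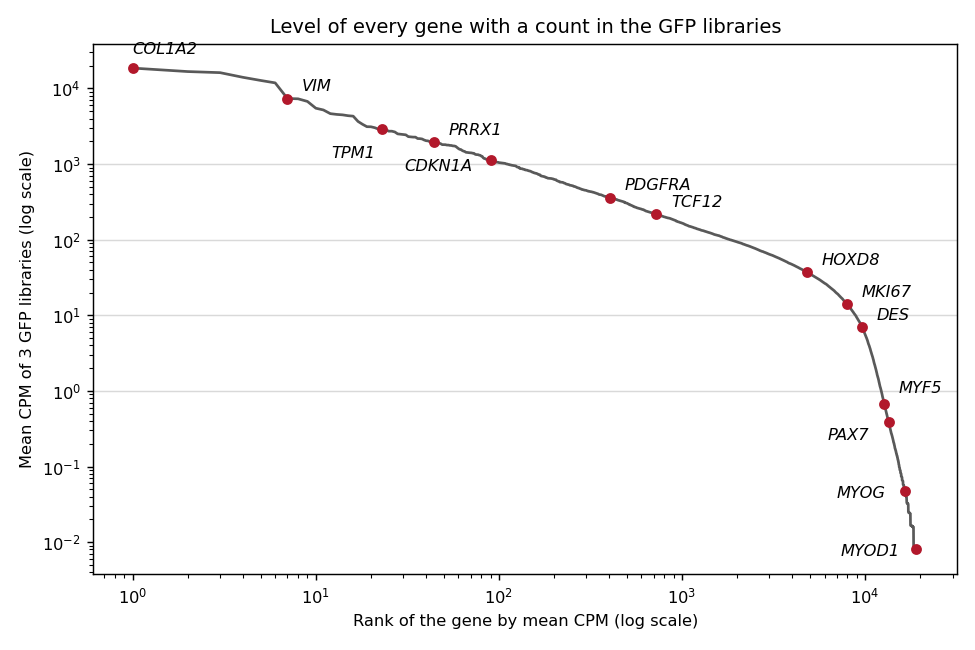
Mean CPM of every gene with a count in the 3 GFP libraries (vertical axis, log scale) against its rank (horizontal axis, log scale), with 14 genes marked in red. COL1A2 stands first at 18594 CPM, and PAX7, MYF5, MYOG and MYOD1 lie on the steep right end of the curve, below 1 CPM.

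COL1A2, which encodes the second chain of type I collagen (Sscrofa11.1, chromosome 9, 74174484 to 74210407), took more reads than any other gene in the mean, at 18567, 18212 and 19004 CPM. COL1A1, the other chain of that fibre, had 16203, 15586 and 16746 CPM. Between them stood THBS1, the matrix glycoprotein thrombospondin 1 (chromosome 1, 131728781 to 131746098), at 16681, 16932 and 16548 CPM. In library 3 COL1A1 lay above THBS1 and in the other libraries below it, so the order of those 2 genes is within the spread between libraries. The elongation factor gene EEF1A1 followed at 14033 ± 240 CPM, fibronectin FN1 at 12754 ± 449 CPM and type III collagen COL3A1 at 11850 ± 159 CPM. VIM, the intermediate filament of mesenchymal cells, reached 7362 ± 157 CPM.

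The label was compared with marker lists. Their members were chosen with earlier results of these data known, so the comparison is no independent check of the label. The markers given for these cells, COL1A2, VIM, TPM1 and TCF12, were all far above 1 CPM, with TPM1 at 2882 ± 29.3 and TCF12 at 217 ± 1.73 CPM. These genes are shared by mesenchymal cells and do not separate myoblasts from fibroblasts. Of the 8 defining genes of satellite cells and the myogenic programme, PAX3 alone had a mean of at least 1 CPM, and all 8 together had 292 counts over the 3 libraries. PAX7, the satellite cell factor (chromosome 6, 77160827 to 77268626), had 0.496, 0.325 and 0.345 CPM. MYF5 stood at 0.803, 0.4002 and 0.837 CPM, lowest in library 2, and its span overlaps a locus that it shares with MYF6. PAX3, a relative of PAX7 that acts in the embryonic muscle lineage, had 0.873, 0.825 and 1.40 CPM, and only library 3 was above 1 CPM. MYOD1, the central myogenic switch (chromosome 2, 41422522 to 41424236), had 1 count in all, in library 3. MYOG and MYF6, which act in differentiation, had 6 and 2 counts, and myostatin, MSTN, had 3, all in library 2. The myoblast cadherin gene CDH15 had 0.171 ± 0.0267 CPM. On these markers the libraries do not show the expression that the label myoblast implies, and they are referred to as GFP control libraries below.

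**Figure D2:**
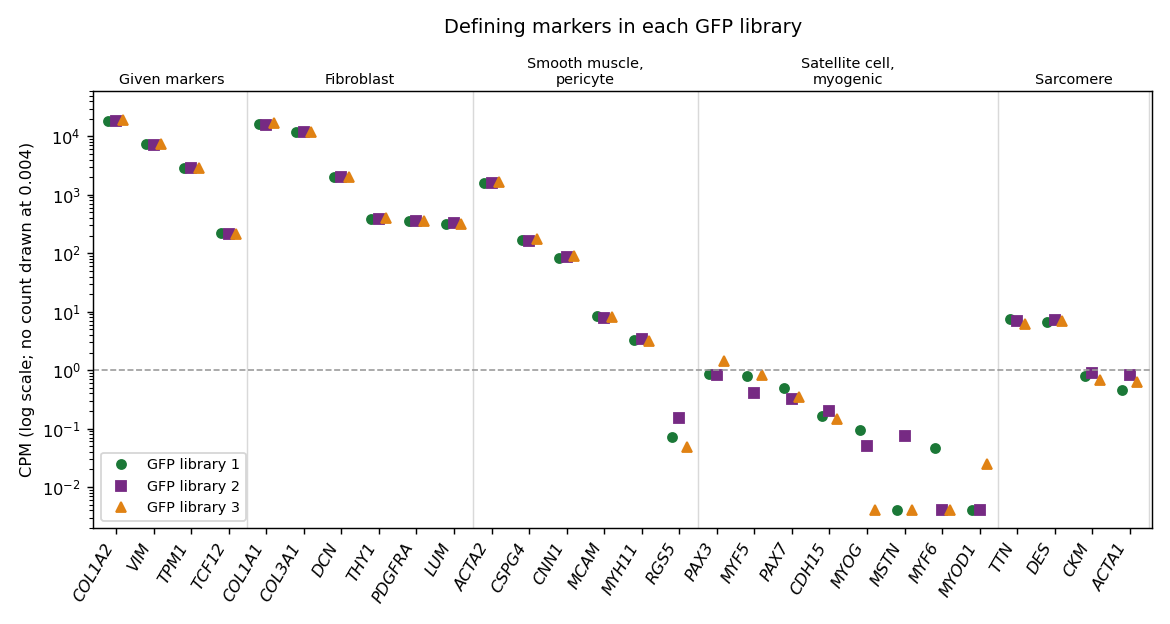
CPM of defining markers (vertical axis, log scale, genes without a count drawn at the bottom) in each of the 3 GFP libraries (circle, square and triangle), by list. The fibroblast markers lie at or above 319 CPM in each library, and every myogenic marker shown lies at or below 1.40 CPM.

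The rest of the satellite cell and myogenic list was mixed. Of its 31 members with a row among the genes counted, 16 were at 1 CPM or more, a share of 51.6% against 67.6% of protein-coding genes with a symbol, and 15 of the 31 also belong to another list. The members with the most reads after TCF12, a broad partner of the myogenic factors, were the adhesion gene NCAM1 at 83.5 ± 3.48 CPM, MEF2D at 70.02 ± 2.36, MEF2A at 66.96 ± 2.11, the HGF receptor gene MET at 57.3 ± 2.02 and the syndecan gene SDC4 at 46.5 ± 1.27 CPM. Each of them is active in many cell types, unlike the defining genes above. CALCR, the calcitonin receptor of quiescent satellite cells, had no count.

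Sarcomere and muscle differentiation genes with a row were mostly near the floor: 15 of 56 were at 1 CPM or more, 5 had no count, and the median was 0.137 CPM. The defining myosin genes MYH3 and MYH8, and the list member MB, had no row under their symbols, so their levels are not known here. The 3 at 100 CPM or more were the tropomyosins TPM1, TPM2 at 299 ± 6.28 and TPM3 at 229 ± 4.12 CPM, which also build the actin cables of non-muscle cells. ENO3, the muscle form of enolase, reached 69.3 ± 0.821 CPM and dystrophin, DMD, 14.9 ± 0.715 CPM. Desmin, DES, the intermediate filament of muscle cells, had 6.54, 7.18 and 7.02 CPM, and titin, TTN, 7.60, 7.03 and 6.18 CPM. Muscle creatine kinase CKM and skeletal actin ACTA1 stood at 0.781 ± 0.0930 and 0.630 ± 0.189 CPM. ACTA1 ran from 0.449 CPM in library 1 to 0.825 CPM in library 2. In bulk RNA, fewer cells of a type and less RNA per cell cannot be told apart.

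Fibroblast and fibro-adipogenic progenitor genes were detected almost throughout. Of 38 members 36 (94.7%) were at 1 CPM or more and 21 at 100 CPM or more, with a median of 167 CPM, and the list took 8.04 ± 0.170% of all counts. Its 6 defining genes were led by COL1A1 and COL3A1. DCN, the proteoglycan that binds collagen fibrils, had 2037 ± 11.6 CPM, the surface glycoprotein gene THY1 387 ± 8.17, PDGFRA 361 ± 2.98 (chromosome 8, 40966568 to 41021440) and lumican, LUM, 324 ± 6.92 CPM. The 2 members below 1 CPM were PI16 and CLEC3B, at 0.279 ± 0.128 and 0.114 ± 0.0523 CPM. Of the 38 members 30 also belong to another list, mostly those of the matrix.

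Genes of contractile and tendon cells were detected in large part as well. Among 25 smooth muscle and pericyte genes 23 were at 1 CPM or more, with a median of 77.6 CPM, and caldesmon CALD1 took the most reads at 2878 ± 95.2 CPM. Smooth muscle actin, ACTA2, a marker of myofibroblasts as well, had 1610, 1564 and 1647 CPM, and the pericyte proteoglycan CSPG4 had 166 ± 6.73 CPM. Of the 6 defining genes 5 were at 1 CPM or more. The actin-binding proteins TAGLN and CNN1 of contractile cells had 870 ± 25.9 and 85.9 ± 3.80 CPM and the pericyte adhesion gene MCAM 8.12 ± 0.227 CPM. MYH11, the smooth muscle myosin, had 3.29 ± 0.103 CPM, RGS5 of pericytes had 0.0901 ± 0.0531 CPM, and myocardin, MYOCD, had 1 count in all. Among 20 tendon genes 18 were at 1 CPM or more, with fibromodulin, FMOD, at 3123 ± 67.1 CPM and tenascin C, TNC, at 3025 ± 97.2 CPM. Of the 3 defining tendon genes the factor MKX stood at 20.1 ± 0.957 CPM, while SCX and TNMD had 0.225 ± 0.134 and 0.0403 ± 0.0364 CPM. Among the defining genes of these lists MCAM, MYH11 and SCX overlap another gene's span in the annotation, so reads may be shared there. The tendon list shares 17 of its 20 genes with other lists.

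Of bone and cartilage genes 7 of 20 and 7 of 19 were at 1 CPM or more. The factors RUNX2 and SP7 of bone-forming cells had 32.5 ± 1.48 and 7.47 ± 0.0797 CPM, whereas the bone matrix genes BGLAP and IBSP had 0.228 ± 0.0695 CPM and 1 count. SOX9, the cartilage factor, had 24.1 ± 0.977 CPM, and its targets ACAN and COL2A1 had 4 and 10 counts over the 3 libraries. In the adipocyte list 5 of 20 members were at 1 CPM or more, led by the lipase gene PNPLA2 at 39.5 ± 2.14 CPM. The fat cell factor PPARG had 0.327 ± 0.109 CPM, and ADIPOQ, PLIN1 and FABP4, which mark mature fat cells, had no count.

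Genes of 9 further cell types were scarce. Their lists hold 200 different genes, of which 37 were at 1 CPM or more and 64 had no count, and together they took 0.0846 ± 0.00147% of the reads. Of their 31 defining genes with a row, 12 had no count and 4 were at 1 CPM or more: CD14 at 6.26 ± 0.510, PECAM1 at 5.95 ± 0.463, WT1 at 1.04 ± 0.384 and SNAP25 at 1.01 ± 0.175 CPM. The endothelial cadherin CDH5, the leukocyte antigen PTPRC, the T cell gene CD3E, haemoglobin HBB, the epithelial genes EPCAM and KRT5, SYT1 of neurons, transthyretin TTR of liver and the germline genes NANOG and DAZL were among those without a count. None of the 26 pluripotency and germ cell genes reached 1 CPM, and 14 of them had no count. In the hepatocyte list 12 of 25 had no count and HPX alone exceeded 1 CPM in the mean, at 2.02 ± 0.347 CPM.

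Some members of these lists were well above the median of their list. ERG, an ETS factor known from endothelium (chromosome 13, 201999237 to 202302572), had 50.7, 50.95 and 52.9 CPM, next to 0 counts of CDH5 and 1 count of VWF. TAL1, a factor of blood and vessel progenitors (chromosome 6, 164282242 to 164297636), had 39.2, 40.02 and 36.6 CPM, next to 0 counts of HBB and KLF1. TAL1 was lowest in library 3 and ERG was highest there. The coefficient of variation (SD over mean) of ERG was 2.29%, where counting error alone has an expected value of 2.18%. The order of ERG among the 3 libraries is therefore not read further. The desmosome and adherens junction gene JUP had 121 ± 1.42 CPM, the deubiquitinase UCHL1, a neuronal marker, 261 ± 9.37 CPM, and the adhesion gene L1CAM, common in nerve, 96.8 ± 1.12 CPM. In the white blood cell list 3 of 30 genes reached 1 CPM, CD14, the integrin ITGAM at 6.14 ± 0.420 CPM and CSF1R at 2.58 ± 0.451 CPM, and 11 had no count. Whether such genes come from rare cells of another kind was not tested.

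**Figure D3:**
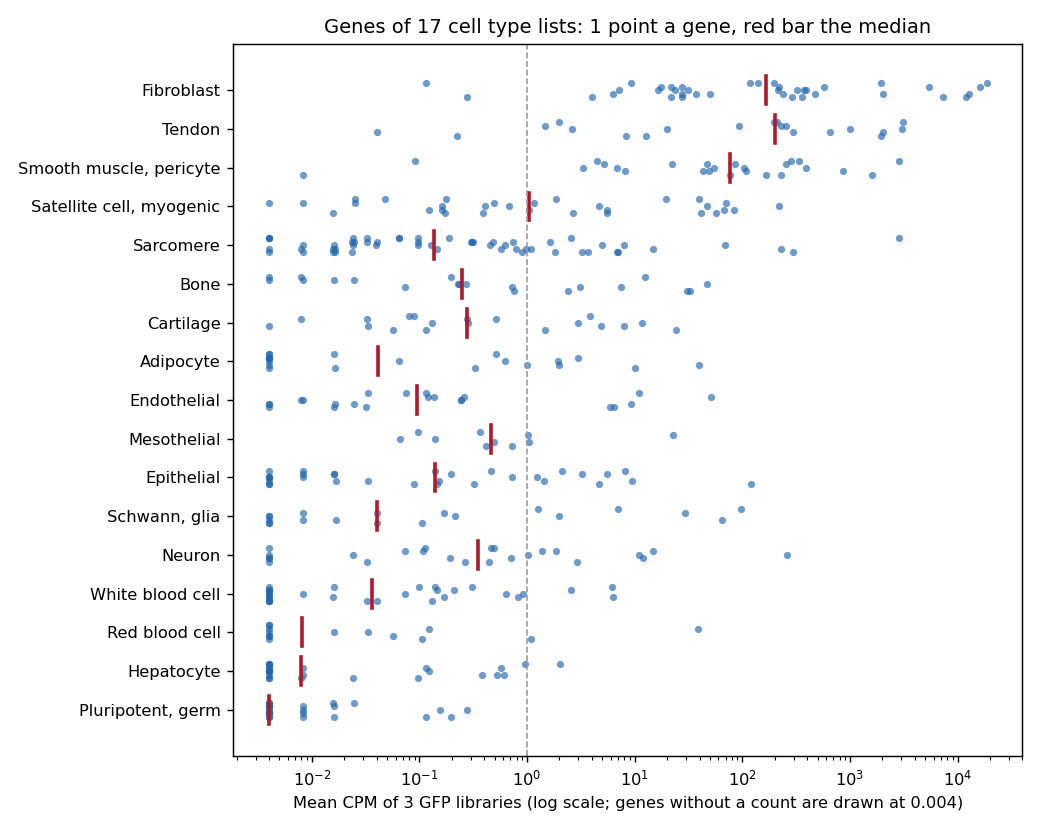
Mean CPM over the 3 GFP libraries (horizontal axis, log scale) of the members of each cell type list, 1 point a gene, with the median as a red bar and a dashed line at 1 CPM. The fibroblast, tendon and smooth muscle lists have medians of 77.6 CPM or more, and the pluripotent and germ list has a median of 0.

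Some genes that such cells need were also near 0. RPL18, a protein of the large ribosomal subunit, had 1 count in all, while the other 77 genes of ribosomal proteins were at 10 CPM or more. PCOLCE, an enhancer of procollagen processing, had no count. These 2 genes fall outside the rule for named genes and were chosen after their values were seen. How reads at these genes were assigned was not tested, and a gene at or near 0 is therefore low as counted under its symbol.

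Matrix genes took a larger share of reads than genes of translation, the cytoskeleton or glycolysis. Collagen, glycoprotein and proteoglycan genes, 156 in all, took 13.3 ± 0.209% of the counts, and 117 of them were at 1 CPM or more. Of 43 collagen genes 26 were at 1 CPM or more and 15 at 100 CPM or more. Chains of type VI collagen, which ties cells to the interstitial matrix, and of type V, which sets fibril width, came next after types I and III: COL6A2 at 4475 ± 93.6, COL5A2 at 4302 ± 28.2 and COL6A3 at 2288 ± 85.2 CPM. COL6A1, another chain of type VI, had no row under its symbol, so its level is not given. COL20A1 and COL25A1 had no count, and the cartilage chain COL2A1 had 0.0803 ± 0.0531 CPM.

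Among 71 glycoproteins 63 were at 1 CPM or more. FBN1, the microfibril protein that holds latent TGF-beta in the matrix, had 5545, 5467 and 5423 CPM, and SPARC, which binds collagen, 4651, 4540 and 4739 CPM. LTBP2, of the latent TGF-beta binding family, had 1330 ± 25.1 CPM. Of 42 proteoglycans, 28 were at 1 CPM or more. After FMOD and DCN came perlecan, HSPG2, at 1483 ± 81.2, biglycan, BGN, at 992 ± 35.4, PRELP at 941 ± 22.9 and versican, VCAN, at 426 ± 8.44 CPM.

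Genes of collagen folding and secretion were detected nearly whole. Of 41 chaperone and collagen-modifying genes of the endoplasmic reticulum 40 were at 1 CPM or more and 32 at 100 CPM or more. HSPA5, the general chaperone of that compartment, had 1046 ± 14.1 CPM, SERPINH1, the collagen chaperone, 1043 ± 23.4 CPM and P4HB, a subunit of prolyl hydroxylase, 670.4 ± 18.01 CPM. The lectin chaperone genes CALR and CANX had 831 ± 14.2 and 755 ± 13.8 CPM.

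Matrix turnover genes were present on both sides. Of 64 proteases and inhibitors 48 were at 1 CPM or more. The gelatinase MMP2 had 869 ± 15.8 CPM, the lysosomal protease CTSB 850.1 ± 14.1, HTRA1 808 ± 8.11 and the membrane-bound MMP14, which activates MMP2, 502 ± 11.5 CPM. The inhibitor TIMP1 had 241 ± 13.3 CPM. MMP3, MMP7, MMP27 and ADAMTS18 had no count.

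Housekeeping and structural lists were detected nearly whole. Ribosomal protein and translation factor genes, 113 in all, took 11.04 ± 0.0638% of the counts, with RPLP0 at 3112 ± 61.9 and EEF2 at 4362 ± 54.8 CPM. All 46 cytoskeletal genes were at 10 CPM or more and took 4.68 ± 0.0358% of the counts, led after VIM by cytoplasmic actin ACTG1 at 5193 ± 168 CPM and the actin crosslinker FLNA at 3662 ± 68.8 CPM. All 20 glycolysis genes were at 10 CPM or more, with PKM at 2659 ± 59.04, GAPDH at 2436 ± 74.7 and LDHA, which makes lactate, at 1864 ± 34.1 CPM.

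Among regulators, the homeobox gene PRRX1, a factor of limb and body wall mesenchyme, took the most reads of the regulator lists (chromosome 4, 80427682 to 80502689). It had 1940.0, 1975 and 1923 CPM, rank 44 of all genes, and its span overlaps a locus of the annotation. Of 147 mesenchymal and developmental transcription factor genes 106 (72.1%) were at 1 CPM or more and 11 at 100 CPM or more. ID3 and ID1, which lack a DNA-binding region and sequester myogenic and other helix-loop-helix factors, had 904 ± 10.04 and 220.0 ± 4.02 CPM. CREB3L1 and CREB3L2, membrane-bound activators of secretory and collagen genes, had 205 ± 7.16 and 192 ± 3.32 CPM. RUNX1 stood at 93.9 ± 0.571, TBX15, a factor of trunk and limb mesenchyme, at 93.1 ± 0.720, TWIST1 at 31.01 ± 0.673 and TCF4 at 27.5 ± 0.703 CPM. The factors without a count were DLX6, FOXA2, IRX6, BARX2, NKX2-5 and EHF.

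Signal-responsive factors were detected more completely, with 131 of 147 at 1 CPM or more, 110 at 10 CPM or more and a median of 33.7 CPM. The highest were the RNA and DNA binding factor YBX1 at 655 ± 9.51, beta-catenin CTNNB1 at 647 ± 15.1, the proteasome regulator NFE2L1 at 609 ± 7.88, the amino acid stress factor ATF4 at 562 ± 10.9, the AP-1 member FOSL2 at 434 ± 14.4 and the clock and hypoxia factor BHLHE40 at 430 ± 7.68 CPM. The Hippo effector YAP1 had 147 ± 2.84 CPM, STAT3 149 ± 3.90, MYC 101 ± 3.02 and the actin-responsive factor SRF 60.04 ± 1.18 CPM. The immediate early factors JUN and FOS stood at 15.2 ± 0.313 and 9.21 ± 0.917 CPM. TP63, STAT4 and IRF4, factors of epithelium and lymphocytes, had no count. Of 47 nuclear receptor genes 27 (57.45%) were at 1 CPM or more, against 67.6% of protein-coding genes with a symbol, and 5 had no count. The highest were the retinoic acid receptor RARG at 139 ± 2.60, the clock repressor NR1D2 at 122 ± 3.21 and the glucocorticoid receptor NR3C1 at 105 ± 1.23 CPM.

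HOX genes, which mark position along the body and limb axes and whose pattern fibroblasts keep in culture, were detected in 29 of 36 cases at 1 CPM or more, and HOXB1 alone had no count. HOXD8 (chromosome 15, 81930923 to 81935528) had 37.6, 37.3 and 36.9 CPM and HOXA10 29.3, 28.6 and 27.7 CPM. In the HOXA cluster groups 5, 6, 9, 10 and 11 were at 10 CPM or more, HOXA6 at 24.6 ± 1.53 and HOXA11 at 15.9 ± 0.809 CPM, whereas HOXA2 and HOXA4 were below 1 CPM. In HOXB and HOXC the highest were HOXB6 at 14.7 ± 0.766 and HOXC8 at 19.2 ± 0.994 CPM. The most posterior group was also present, HOXA13 at 5.002 ± 0.393, HOXB13 at 6.57 ± 0.568, HOXC13 at 3.52 ± 0.213 and HOXD13 at 8.57 ± 0.413 CPM. The 4 clusters summed to 112, 44.3, 51.6 and 75.5 CPM for HOXA, HOXB, HOXC and HOXD. HOX spans overlap each other or antisense loci in many cases, HOXA5, HOXA6 and HOXA10 among them, so reads of a neighbour may be among them. HOXA2, HOXA4, HOXB1, HOXB13 and HOXC13 fall outside the rule for named genes and were chosen after their values were seen.

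**Figure D4:**
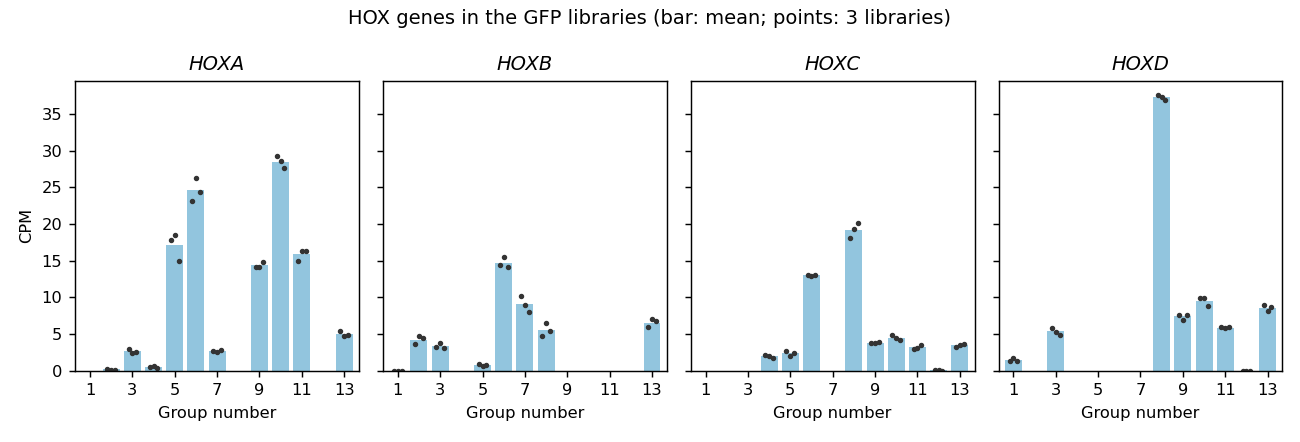
CPM (vertical axis) of HOX genes of each cluster by group number (horizontal axis), with bars for the mean and points for the 3 GFP libraries. Group numbers without a bar are not shown here, and the highest bars are HOXD8 and HOXA10.

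The receptor lists took 1.49 ± 0.00544% of the counts over 319 genes, 176 of them at 1 CPM or more. These lists also hold SMAD genes and Notch ligands and leave out LRP1, so the share is that of the lists. Integrins, the receptors for matrix, were led by ITGB1, the common beta chain, at 2479 ± 75.5 CPM and by ITGA5, its partner for fibronectin, at 1351 ± 25.1 CPM. ITGA8 had 282 ± 3.62 and ITGAV 192.0 ± 4.73 CPM. Among 57 receptor tyrosine kinases 29 were at 1 CPM or more and 7 at 100 CPM or more. DDR2, a receptor for fibrillar collagen (chromosome 4, 87749738 to 87911818), had 964, 963 and 957 CPM. PDGFRA and PDGFRB, the latter at 239 ± 4.06 CPM, bind platelet-derived growth factors, AXL at 286 ± 7.58 CPM binds GAS6, and IGF1R had 114 ± 0.553, EGFR 74.2 ± 1.28 and FGFR1 71.5 ± 2.51 CPM. FLT3, MUSK, MERTK, EPHA6, EPHA8 and ROS1 had no count, MUSK being the receptor that organises the synapse on muscle fibres.

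Of the 27 genes in the list of TGF-beta receptors and SMADs, which also holds SMURF2 and SKIL, 25 were at 1 CPM or more. TGFBR2 had 247, 239 and 247 CPM, TGFBR1 172 ± 8.03, BMPR1A 75.02 ± 3.62 and SMAD3 56.9 ± 0.321 CPM. Of 34 genes in the list of Wnt, Notch and Hedgehog receptors, which also holds Notch ligands, 27 were at 1 CPM or more. NOTCH2 had 506.0 ± 5.65, the Frizzled gene FZD1 286 ± 5.31, its co-receptor LRP6 167 ± 9.27 and the Notch ligand JAG1 118 ± 2.18 CPM. The Hedgehog receptor and target PTCH1 stood at 10.2 ± 0.514 CPM.

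Of 74 cytokine receptor genes 36 (48.65%) were at 1 CPM or more and 9 had no count. Of 101 G protein-coupled receptor genes 39 (38.6%) were at 1 CPM or more and 25 had no count. Both shares lay below the 67.6% of protein-coding genes with a symbol. IL6ST, the shared signalling chain for interleukin 6, 11 and LIF, had 408 ± 14.7 CPM, IL1RAP 192 ± 6.58 and the interferon receptor IFNAR1 112 ± 0.559 CPM. Among the 101 listed G protein-coupled receptors the adhesion receptors ADGRA2 and ADGRE5 led with 203 ± 2.09 and 145 ± 3.25 CPM, followed by GPRC5A at 87.5 ± 0.731 CPM. The adhesion receptor ADGRA3, which is outside the list, had 106.6 CPM. The serotonin receptor HTR7 had 36.8 ± 0.734, the endothelin receptor EDNRA 31.3 ± 1.28 and the lysophosphatidic acid receptor LPAR1 26.9 ± 0.704 CPM.

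Among secreted signals, antagonists of Wnt and BMP proteins came first by reads. SFRP2, which binds Wnt proteins outside the cell (chromosome 8, 75337311 to 75345926), had 6765, 6701 and 6734 CPM, rank 9 of all genes. FSTL1 had 2272 ± 31.5, CRIM1, which tethers BMP proteins, 452 ± 2.12, DKK3 328 ± 6.29, the BMP antagonist CHRDL1 271 ± 6.43 and SFRP1 106 ± 3.38 CPM. By contrast DKK1 had no count, and among Wnt ligands WNT5B stood at 16.8 ± 1.27 and WNT5A at 15.4 ± 0.941 CPM, and WNT1, WNT3A and WNT7A were below 1 CPM. WNT5B and the low Wnt ligands fall outside the rule for named genes and were chosen after their values were seen.

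Of 82 growth factor and ligand genes 57 were at 1 CPM or more and 15 at 100 CPM or more. FGF2, a mitogen of mesenchymal cells (chromosome 8, 101278877 to 101344084), had 1030.2, 1090 and 973 CPM, highest in library 2, and overlaps the antisense gene NUDT6 in the annotation. FGF7, which acts on epithelium, had 440 ± 32.2 CPM, LIF 249 ± 7.29, VEGFA 223 ± 9.69 and IGF1 215 ± 8.50 CPM. The fetal form IGF2 stood at 2.74 ± 0.280 CPM, HGF at 10.5 ± 0.754, TGFB1 at 32.5 ± 1.43 and PDGFA at 21.2 ± 0.839 CPM. Of 9 IGF binding protein genes IGFBP2 took the most reads, with 3258, 3470.5 and 3337 CPM, highest in library 2, followed by IGFBP6 at 91.3 ± 1.55 and IGFBP4 at 69.5 ± 1.73 CPM, and IGFBP3 had 1.504 ± 0.0261 CPM.

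Of 56 listed interleukins and chemokines, 16 were at 1 CPM or more and 18 had no count. The pig chemokine gene AMCF-II, which is outside the list, had 80.2 CPM. IL33, an alarmin kept in the nucleus of stromal cells (chromosome 1, 215899830 to 215941944), had 433, 446 and 416 CPM. IL11, a cytokine that drives matrix production in fibroblasts, had 262 ± 8.22 CPM and the monocyte attractant CCL2 154 ± 1.13 CPM. CXCL8 and IL6, both targets of NF-kB, stood at 27.9 ± 2.50 and 12.5 ± 0.779 CPM. CXCL12, a chemokine common in stroma, had 12 counts, none of them in library 3. Of 30 complement genes 14 (46.7%) were at 1 CPM or more, against 67.6% of protein-coding genes with a symbol, and 6 had no count. The start of the classical pathway was represented by its proteases C1S at 155 ± 1.61 and C1R at 122 ± 2.96 CPM. C3 had 26.3 ± 0.725 CPM, and C1QA, C1QB and C1QC, which macrophages make, had no count.

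**Figure D5:**
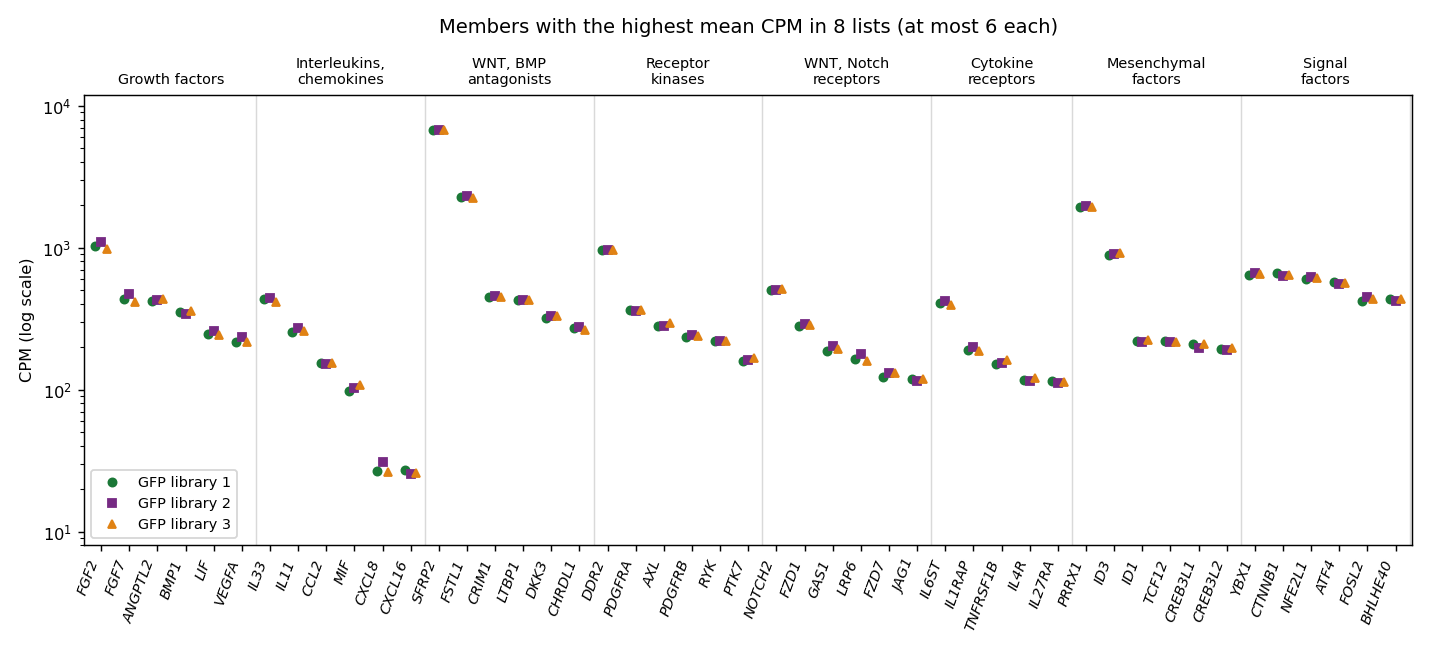
CPM (vertical axis, log scale) of members with the highest mean CPM, at most 6 a list, in 8 lists of ligands, receptors and regulators, with circle, square and triangle for GFP libraries 1, 2 and 3. The 3 libraries lie close together for each gene, and SFRP2, FSTL1, PRRX1 and FGF2 are the genes above 1000 CPM in the mean.

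Genes of the cell cycle were present at moderate levels beside inhibitors of it. Of 50 S phase and mitosis genes 48 were at 1 CPM or more, 25 at 10 CPM or more and 1, the thymidylate synthase gene TYMS at 126 ± 0.513 CPM, at 100 CPM or more. MKI67 had 13.6, 13.9 and 14.7 CPM, TOP2A 32.2 ± 0.922, PCNA 32.8 ± 1.58 and cyclin B1, CCNB1, 16.7 ± 1.19 CPM. CDC6 and CDT1, which load the replicative helicase in G1, were the members below 1 CPM. All 29 genes with a row in the list of cell cycle inhibitors, D-type cyclins and p53 targets were at 1 CPM or more. CDKN2A, also in that list, had no row under its symbol, so its level is not known here. CDKN1A, the p53-induced inhibitor p21 (chromosome 7, 32354776 to 32363771), had 1132, 1127 and 1151 CPM, rank 91 of all genes. Other p53 targets were MDM2 at 237 ± 5.58 and ZMAT3 at 219 ± 3.98 CPM, and cyclin D1, CCND1, had 329 ± 6.21 CPM. CDKN2B, an inhibitor linked to TGF-beta and senescence, had 17.8 ± 0.546 CPM. In bulk RNA these values do not give the share of dividing cells.

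Of 29 stress genes with a row 28 were at 1 CPM or more and 20 at 100 CPM or more. HSPA1A and MT2A, also in that list, had no row under their symbols. The ferritin genes FTL and FTH1 had 2149 ± 47.4 and 1762 ± 23.3 CPM, and haem oxygenase, HMOX1, 742, 777 and 767 CPM. The cytosolic chaperones HSPA8 and HSP90AB1 stood at 1783 ± 15.0 and 1735 ± 16.6 CPM, while DDIT3 and ATF3, which rise under acute stress, had 38.01 ± 1.52 and 8.17 ± 0.468 CPM. Interferon response and antigen presentation genes were at 1 CPM or more in 33 of 43 cases. B2M, the light chain of class I molecules, had 315 ± 6.73 CPM, and a further entry, B2M_1, was counted apart at 79.8 CPM. IFITM3 had 194 ± 1.85 CPM, and the interferon-induced genes ISG15 and IFIT1 had 1.86 ± 0.335 and 1.32 ± 0.284 CPM. MX1, another such gene, stood at 39.9 ± 0.684 CPM.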

How the data were processed

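RNA was taken from 3 libraries of GFP control cells and sequenced after a stranded library kit for mRNA, per the labels. Whole-number read counts for each gene, not normalized, are what the authors deposited. Per the submitters' processing notes the authors used CASAVA 1.9, Trim Galore, featureCounts and the build Sscrofa11.1, and the column names, per the file headers, carry the words trimmed and subread. For annotation release, strand setting and reads with several positions, no source used here gives the choice.

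Counts were divided by the library total and multiplied by 1000000 (CPM), with no further scaling, in Python 3.11.15 with pandas 2.3.3. The 6 columns of the other groups were not used. Positions come from RefSeq for Sscrofa11.1, where 26838 genes (98.2%) matched by symbol; of 378 named genes 111 overlap another gene's span. Members were ranked by mean CPM. The 46 lists, with 1805 different genes, and the members were chosen with earlier results of these data known. Named are the 30 genes with the highest mean CPM, the 6 highest and the defining members of each list, and the 10 genes of at least 10 CPM with the largest coefficient of variation; other genes, among them single members without a count, were chosen after their values were seen. The planned rank per kilobase and the promoter letters were not computed, since exon lengths and sequences were not used here. Dispersion was estimated with edgeR 4.0.16 in R 4.3.3 after filterByExpr, and the steps were tested on simulated data. TMM factors, DESeq2 1.42.0 size factors, leaving out each library and leaving out overlapping genes were tried as alternatives. Some members of the lists are not reported here by name. No paired comparison and no test was made.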

Additional observations from a re-analysis of the deposited data

How the results depend on the processing

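The number of genes at 1 CPM or more was 12241 with TMM factors, 12242 with DESeq2 size factors, 12038 when 1 CPM was asked of each library, 13089 at 0.5 CPM and 13657 by filterByExpr, and 12229 to 12246 when a library was left out. Without genes whose span overlaps another gene it was 7909, because 9019 genes leave the table, and the shares of the 10 and 100 highest genes became 15.9% and 37.4% of a smaller total. Leaving out a library gave 11.6% to 11.8% and 29.3% to 29.6%, and kept 29 or 30 of the 30 highest genes and 98 or 99 of the 100 highest. Among named genes at 1 CPM or more the largest change under the scalings and left-out libraries was 1.22-fold, for PAX3 without library 3, which then falls below 1 CPM. Among lists, the count at 1 CPM or more went from 3 to 1 for mesothelial genes without library 2 and from 1 to 2 for hepatocyte genes without library 1, and at 0.5 CPM from 1 to 5 for hepatocyte, from 3 to 6 for white blood cell and from 5 to 8 for adipocyte genes. Without overlapping genes the count fell by more than 1.5 times in 19 lists, which also lost members: HOX went from 29 of 36 to 14 of 19, cartilage from 7 of 19 to 3 of 10, adipocyte from 5 of 20 to 3 of 14, tendon from 18 of 20 to 10 of 11 and collagens from 26 of 43 to 17 of 26. No paired analysis was possible because the results come from 1 group and from no test. Depth limits the genes near 0.0244 CPM, whose values rest on a few counts.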

Other observations

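The 3 libraries were close to each other. edgeR's common dispersion over 13657 genes gave a coefficient of variation of 2.70% beyond counting error, and 2.33% to 3.20% when a library was left out. For 8855 genes of at least 10 CPM the median coefficient of variation was 2.97%, and 97 of them (1.10%) exceeded 10%. The value expected from counting error alone had a median of 2.43%. It is an expected value and not an estimate from 3 libraries, so it is not a like measure to the 2.97%. For the pairs of libraries chi-square divided by its degrees of freedom ran from 2.63 to 3.69, above the value that counting error alone gives. It serves as a description, without a p-value. It used counts without further scaling, so differences in abundant genes such as RN18S enter it. Of the 8855 genes of at least 10 CPM, library 2 was the highest of the 3 for 3719 and library 3 the lowest for 3574. These ranks use CPM without further scaling. The median deviation from a gene's mean log2 CPM was small, at 0.00898 in library 2 and -0.00509 in library 3.

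Among genes of at least 10 CPM the largest coefficient of variation, 30.5%, was that of LOC102723301, which RefSeq lists as a signal recognition particle RNA (chromosome 1, 179457000 to 179457281), a small RNA of protein export without a poly(A) tail. It had 27.3, 50.8 and 47.8 CPM and was lowest in library 1, where RN18S was highest. LOC102158401 had 163, 121 and 133 CPM, high in library 1 as well. Among the 10 with the largest values, PDE7B, which breaks down cyclic AMP, had 9.56, 12.03 and 9.51 CPM, and the angiopoietin-like gene ANGPTL1 had 13.5, 15.7 and 11.9 CPM.

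Genes named by a locus identifier made up 9918 of the table and took 3.47 ± 0.0150% of the counts, and 1002 of them were at 1 CPM or more. One of them, LOC100623720 (chromosome 13, 208295245 to 208321789), ranked 13 of all genes at 4536 ± 91.7 CPM. Long noncoding RNA genes, 5600 in RefSeq's classes, took 0.946 ± 0.0186% of the counts, with 413 at 1 CPM or more and 19 at 100 CPM or more. Transcribed pseudogenes took 0.602 ± 0.00267%, although they number 72, and the ribosomal RNA genes took 0.745 ± 0.0873%, which was 0.831% in library 1 and 0.656% in library 2.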
